A study of Homo sapiens with 2 samples.

Results

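Decitabine (DAC) acts on a cell only after uptake through nucleoside transporters and phosphorylation inside the cell, and the levels of 7 genes of this route were examined in single HCT116 cells. The 7 genes were taken by name from the 33538 genes listed in both tables, namely the transporters *SLC29A1* and *SLC29A2*, the kinases *DCK* and *CMPK1*, the deaminases *CDA* and *DCTD*, and the triphosphate hydrolase *SAMHD1*. Their levels were compared between mock- and DAC-treated cells. Among DAC-treated cells, their levels were also related to the share of UMIs from 22208 selected genes, those that never exceeded 2 UMIs in a mock-treated cell. Of these, 14099 had a UMI in either library. None of the 7 genes was among the selected genes.

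HCT116 is an established human colon cancer cell line, and 1 library per condition was prepared from it by capturing single cells in droplets. The DAC-treated culture was exposed from day 1 to day 5, with 0.5 µM added at the start and again on day 3, and cells were taken on day 7, counted from seeding. Mock-treated cells were labelled as mock, and the label gives no further detail of what was added to them. Unique molecular identifiers (UMIs), attached near the 3′ end of each RNA, made it possible to count molecules instead of reads, and levels are given as counts per 1000000 UMIs of the library (CPM). Since 1 library was available per condition, no test between conditions was made. The 95% intervals (exact Poisson for sums, exact Clopper-Pearson for shares and ratios) cover counting error only and say nothing of the spread between cultures.

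DAC is a deoxycytidine analog that is inert until it becomes a triphosphate. Equilibrative transporters of the SLC29 family carry it across the plasma membrane, deoxycytidine kinase (DCK) adds the first phosphate, and the kinases that follow in the chain add the others, after which the triphosphate is built into DNA and traps DNA methyltransferases. Cytidine deaminase (CDA) inactivates the free nucleoside, dCMP deaminase (DCTD) acts on the monophosphate, and SAMHD1 cleaves deoxynucleoside triphosphates, including that of DAC.

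The mock-treated library held 49911689 UMIs in 1783 cells (median 27899 per cell), and the DAC-treated library held 59046165 UMIs in 1751 cells (median 35340). Of the colon epithelium markers, *KRT8*, *KRT18*, *KRT19*, and *EPCAM* were abundant in both libraries. Few UMIs were found of *CEACAM5* (1 and 0), *VIL1* (37 and 62), *CDX1* (0 and 58), and *LGALS4* (7 and 103). The 13 markers summed to 5416 CPM in mock-treated and 8166 CPM in DAC-treated cells. Most of both sums came from *KRT18* (2030 and 4280 CPM), *KRT8* (1094 and 1895 CPM), and *KRT19* (1439 and 1534 CPM). *KRT8* and *KRT18* were higher after DAC, with CPM ratios of 1.73 and 2.11, and *EPCAM* (0.636), *CLDN4* (0.314), *CLDN7* (0.472), and *ELF3* (0.289) were lower. Markers of other cell types summed to 8.98 and 19.0 CPM for immune cells (11 genes), 10.9 and 20.2 CPM for fibroblasts (8 genes), and 0.2204 and 2.40 CPM for endothelium (5 genes). In the mock-treated library, *PTPRC*, *PECAM1*, and *DCN* had no UMI, and in the DAC-treated library they had 16, 46, and 31 UMIs. Of these 3 lists, 2, 5, and 3 genes had no UMI in the mock-treated library and 0 in the DAC-treated library, and their part in the results below was not tested. The mitochondrial share of UMIs exceeded 50% in 311 mock-treated and 319 DAC-treated cells. Relations between cells were therefore computed over the cells with at least 10000 UMIs and at most 50% mitochondrial UMIs, which were 1298 mock-treated and 1120 DAC-treated cells. Both libraries shared 12 barcodes. The median gene had a CPM ratio of 1.14 between DAC- and mock-treated cells (log2 0.18, 11152 genes with 100 UMIs or more in both), and ratios relative to this median gene are given beside the plain ones.

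Because DAC leads to the loss of methylation at CpG sites, the CpG content before the start sites of the 7 genes was looked at first, in the RefSeq promoter windows on GRCh38.p14 that were matched for 6 of them. Over the 250 bases before each start, *CDA* had 5 CpG sites against a median of 11 over 35116 promoters, and 34.3% of promoters had fewer. The observed to expected CpG ratio of the *CDA* window was 0.2201. The other windows were richer, with 14 sites for *SAMHD1*, 16 for *CMPK1*, 19 and 27 for both starts of *SLC29A1*, 23 and 40 for both starts of *DCTD*, and 31 for *DCK*. Annotated exons took up 185 of the 250 bases of the *SAMHD1* window, and the other 65 bases held 3 sites. Sequences of 3 windows are printed to show this contrast, the CpG-poor *CDA* beside *DCK* and the first start of *SLC29A1*, without the bases of annotated exons. The *DCK* window lies before the start that RefSeq gives, inside the span annotated by GENCODE, which begins at 70992538. They cover chr1:20588847-20589085 (5 CpG sites in the printed bases), chr4:70993399-70993562 (19 sites), and chr6:44219365-44219552 (12 sites), all on the plus strand, 5′ to 3′, with the CpG sites in capitals.
CDA: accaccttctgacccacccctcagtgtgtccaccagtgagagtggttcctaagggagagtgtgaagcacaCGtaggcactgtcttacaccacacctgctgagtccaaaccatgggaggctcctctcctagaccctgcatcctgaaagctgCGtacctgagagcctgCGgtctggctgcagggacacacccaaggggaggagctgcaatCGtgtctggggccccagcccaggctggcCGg
DCK: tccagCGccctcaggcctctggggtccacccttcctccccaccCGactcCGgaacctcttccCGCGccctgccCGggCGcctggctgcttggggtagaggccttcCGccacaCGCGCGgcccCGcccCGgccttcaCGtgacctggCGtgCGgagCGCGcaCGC
SLC29A1: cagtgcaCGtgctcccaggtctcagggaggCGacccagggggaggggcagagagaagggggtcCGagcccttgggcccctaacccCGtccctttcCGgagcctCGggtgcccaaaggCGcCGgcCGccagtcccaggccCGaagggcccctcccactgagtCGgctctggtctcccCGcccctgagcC
In these sequences, CpG pairs are spread over the whole of the *DCK* stretch, while long runs of the *CDA* stretch hold none. None of the windows of the 6 genes held a match on either strand to the E2F-type motifs TTTCCCGC, TTTCGCGC, TTTGCCGC, or TTTGGCGC, which 2.79% of all promoters held in the 250 bases. No methylation was measured in these libraries.

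Taken by the summed UMIs, *SAMHD1*, *SLC29A1*, and *CDA* were higher by 1.5-fold or more in DAC-treated cells, and *SLC29A2* was at least 1.5-fold lower. *DCK* and *CMPK1* were higher by less than 1.5-fold, and *DCTD* was lower by less than 1.5-fold. Thus 3 of the 7 genes were called higher and 1 lower, while of 12825 genes reaching 100 UMIs in either library, 31.3% were called higher and 13.7% lower. Relative to the median gene, 2 members were called higher (*SAMHD1* and *SLC29A1*) and 2 lower (*SLC29A2* and *DCTD*), against 23.2% and 19.2% of all genes. The ratio was above 1 for 5 genes and below 1 for 2 genes under both scalings, and no interval contained 1.

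*SLC29A1* (ENSG00000112759, hg38 chromosome 6, 44219553 to 44234142, plus strand) encodes ENT1, the main equilibrative carrier of nucleosides at the plasma membrane. It had 587 UMIs in mock-treated and 1187 UMIs in DAC-treated cells, or 11.8 CPM (10.8 to 12.8) and 20.1 CPM (19.0 to 21.3). The DAC-treated library was higher, the intervals did not overlap, and the CPM ratio was 1.71 (1.55 to 1.89), or 1.505 relative to the median gene. After drawing 1007 UMIs per cell, it was 1.11 (0.611 to 2.04), and in cells of like cell cycle RNA 1.32 and 1.33, all under 1.5-fold. At least 1 UMI was present in 24.4% (22.4 to 26.5) of mock-treated and 38.3% (36.0 to 40.6) of DAC-treated cells. When 10000 UMIs were drawn from each cell, without the 395 mock-treated and 458 DAC-treated cells of lower depth, the shares were 10.8% and 18.6%.

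*SLC29A2* (ENSG00000174669, chromosome 11, 66362521 to 66372214, minus strand) encodes ENT2, the second carrier of the family, and it moved the other way. It had 569 UMIs in mock-treated and 417 UMIs in DAC-treated cells, or 11.4 CPM (10.5 to 12.4) and 7.06 CPM (6.40 to 7.77). The mock-treated library was higher without overlap of the intervals, and the ratio was 0.619 (0.545 to 0.704), or 0.545 relative to the median gene. As the mean of the CPM of single cells, it was 0.696, and after drawing 1007 UMIs per cell 0.755 (0.329 to 1.68), both short of 1.5-fold lower. The share of cells with a UMI was 24.3% (22.3 to 26.3) in mock-treated and 19.3% (17.5 to 21.2) in DAC-treated cells, and 11.0% and 7.35% at 10000 UMIs. The UMIs of both carriers were nearly equal in mock-treated cells, with 1.03 UMIs of *SLC29A1* for each of *SLC29A2* (0.918 to 1.16), and unequal in DAC-treated cells, with 2.85 (2.54 to 3.19). This ratio compares UMIs within a library and not molecules per gene length.

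*DCK* (ENSG00000156136, chromosome 4, 70992538 to 71030914, plus strand) encodes the kinase that catalyzes the first and rate-limiting phosphorylation of DAC. Its annotated span overlaps *MOB1B* on the same strand, so that some of its UMIs could belong to either gene. It had 484 UMIs in mock-treated and 805 UMIs in DAC-treated cells, or 9.70 CPM (8.85 to 10.6) and 13.6 CPM (12.7 to 14.6). The level was higher in DAC-treated cells, with a ratio of 1.41 (1.254 to 1.58) that stayed under 1.5-fold, or 1.24 relative to the median gene. A UMI was present in 19.7% (17.9 to 21.7) of mock-treated and 31.3% (29.1 to 33.5) of DAC-treated cells, and in 7.78% and 12.7% at 10000 UMIs. The ratio depended on how cells were summed, since it was 1.62 (1.28 to 2.07) after drawing 10000 UMIs per cell and 2.06 as the mean of the CPM of single cells. In cells of like cell cycle RNA, described further on, it was 0.792 (0.469 to 1.27) and 1.00 (0.805 to 1.26).

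*CMPK1* (ENSG00000162368, chromosome 1, 47333790 to 47394866, plus strand) encodes UMP/CMP kinase, which adds the second phosphate to pyrimidine nucleotides. Its span overlaps *LINC01389* on the other strand. It had 2108 UMIs in mock-treated and 3061 UMIs in DAC-treated cells, or 42.2 CPM (40.5 to 44.1) and 51.8 CPM (50.02 to 53.7). The ratio was 1.23 (1.16 to 1.30), and 1.08 (1.02 to 1.14) relative to the median gene. A UMI was found in 55.0% (52.7 to 57.3) of mock-treated and 61.1% (58.8 to 63.4) of DAC-treated cells, and in 31.6% and 37.9% at 10000 UMIs.

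*CDA* (ENSG00000158825, chromosome 1, 20589086 to 20618903, plus strand) encodes the deaminase that converts cytidine and deoxycytidine, and their analogs, to uridine forms. It had 1924 UMIs in mock-treated and 3716 UMIs in DAC-treated cells, or 38.5 CPM (36.8 to 40.3) and 62.9 CPM (60.9 to 65.0). The DAC-treated library was higher, with a ratio of 1.63 (1.54 to 1.73), or 1.44 relative to the median gene. After drawing 10000 UMIs per cell, it was 1.44 (1.29 to 1.61), also under 1.5-fold. In contrast to *SLC29A1* and *SAMHD1*, the share of cells with a UMI did not go up with the level. It was 48.8% (46.4 to 51.1) in mock-treated and 48.0% (45.7 to 50.4) in DAC-treated cells, and 31.3% and 31.9% at 10000 UMIs, with overlapping intervals both times.

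*DCTD* (ENSG00000129187, chromosome 4, 182890060 to 182917936, minus strand) encodes dCMP deaminase, which turns dCMP into dUMP and also accepts the monophosphate of DAC. It had 1872 UMIs in mock-treated and 1575 UMIs in DAC-treated cells, or 37.5 CPM (35.8 to 39.2) and 26.7 CPM (25.4 to 28.0). It was lower in DAC-treated cells without overlap of the intervals, with a ratio of 0.711 (0.665 to 0.761), or 0.626 relative to the median gene. A UMI was found in 53.5% (51.2 to 55.8) of mock-treated and 44.8% (42.4 to 47.1) of DAC-treated cells, and in 30.3% and 19.8% at 10000 UMIs. The UMIs of both deaminases moved apart, from 1.03 UMIs of *CDA* for each UMI of *DCTD* (0.964 to 1.10) in mock-treated cells to 2.36 (2.22 to 2.50) in DAC-treated cells.

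*SAMHD1* (ENSG00000101347, chromosome 20, 36890229 to 36951893, minus strand, overlapped on the other strand by *TLDC2*) encodes the hydrolase that removes the triphosphate from deoxynucleotides, and it had the highest ratio of the 7 genes. It had 349 UMIs in mock-treated and 1238 UMIs in DAC-treated cells, or 6.99 CPM (6.28 to 7.77) and 21.0 CPM (19.8 to 22.2). The ratio was 3.00 (2.66 to 3.39), or 2.64 relative to the median gene, and 91.6% of the 12825 genes had a lower ratio. After drawing 1007 UMIs per cell, it was 6.64 (2.56 to 21.9). A UMI was found in 16.7% (15.0 to 18.5) of mock-treated and 39.4% (37.1 to 41.7) of DAC-treated cells, and in 7.28% and 17.1% at 10000 UMIs. Set against *DCK*, there were 0.721 UMIs of *SAMHD1* per UMI of *DCK* in mock-treated cells (0.627 to 0.829) and 1.54 in DAC-treated cells (1.41 to 1.68). The same quantity for *CDA* was 3.98 (3.60 to 4.40) and 4.62 (4.28 to 4.99), with overlapping intervals.

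**Figure D1:**
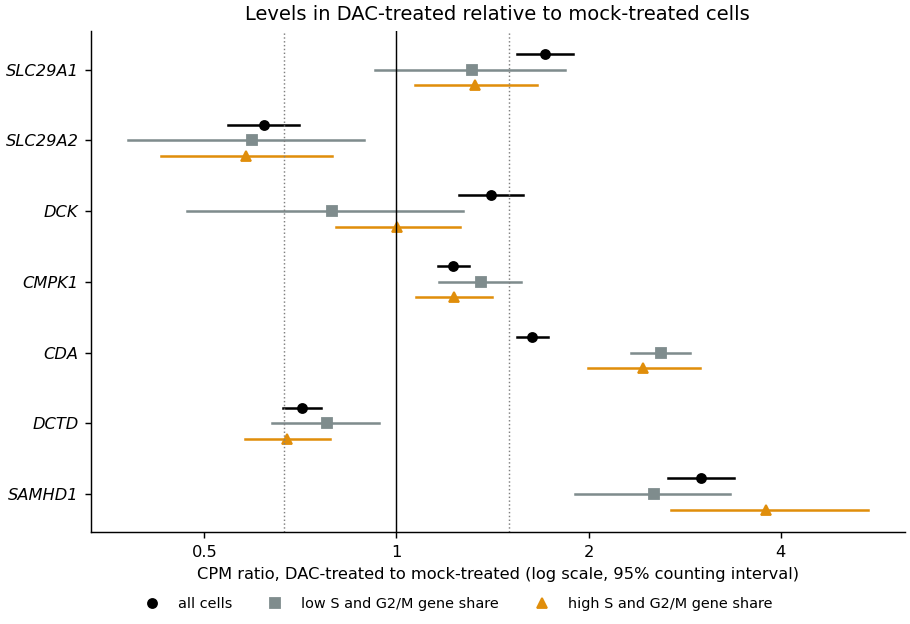
CPM ratio of each gene in DAC-treated to mock-treated cells on a log axis, with 95% counting intervals, for all cells (black circles) and for cells of low (grey squares) and high (orange triangles) share of UMIs from S-phase and G2/M genes, and dotted lines at 1.5-fold in either direction. *SAMHD1* lay highest at 3.00 and *SLC29A2* lowest at 0.619 over all cells, and of the 5 genes above 1 over all cells, *DCK* came to 0.792 and 1.00 in the cell classes.

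Most of these genes had few UMIs in any one cell. The maximum was 3 UMIs of *SAMHD1* in a mock-treated cell and 8 in a DAC-treated cell, and 5 UMIs of *SLC29A2* in both libraries. Cells with 3 UMIs or more went from 0.280% to 8.05% for *SAMHD1*, from 1.79% to 7.20% for *SLC29A1*, and from 1.12% to 3.54% for *DCK*. The number of cells without a UMI was set against the number that would have none if every cell held the same share of its UMIs. In DAC-treated cells, these numbers were 1061 and 982.8 for *SAMHD1*, 1203 and 1170 for *DCK*, 681 and 603.7 for *CMPK1*, and 967 and 874.1 for *DCTD*. Over both libraries, the first was 1.00 to 1.13 times the second for the 6 genes other than *CDA*. Because HCT116 is a single cell type, no cells that lack these genes were available to measure the UMIs given by free RNA.

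By the number of cells without a UMI, *CDA* departed from an even share more than any other member in both libraries, and more so after DAC treatment. It was absent from 913 mock-treated cells where an even share gives 763.3, and from 910 DAC-treated cells where it gives 541.5. The squared coefficient of variation beyond Poisson sampling was 0.469 in mock-treated cells, next to 0.502 for *DCK*, and 2.01 in DAC-treated cells. In DAC-treated cells, 97.95% of the 782 genes within 1.2-fold of its UMIs had a lower value, and their median was 0.216. The other 6 genes had values from 0.187 to 0.427 in DAC-treated cells, where 28.4% to 69.9% of genes of like level were lower.

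A small part of the DAC-treated cells held much of the *CDA* RNA. At least 10 UMIs of *CDA* were found in 93 DAC-treated cells (5.31%, 4.31 to 6.47) and in 4 mock-treated cells (0.224%, 0.0612 to 0.573), and the maximum was 60 and 14 UMIs. The 93 cells held 43.8% of all *CDA* UMIs of the DAC-treated library. They had a median of 60722 UMIs, above that of the library, and a median of 20.1% mitochondrial UMIs. The limit of 10 UMIs takes no account of depth. Among cells with at least 10000 UMIs and at most 50% mitochondrial UMIs, the 5% with the highest *CDA* level were also compared. They held 30.5% of the *CDA* UMIs of such cells in the DAC-treated and 18.6% in the mock-treated library. When the 5% of cells with the highest *CDA* level were left out of both libraries, the ratio was 1.42 (1.33 to 1.52), still above 1 and under 1.5-fold.

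**Figure D2:**
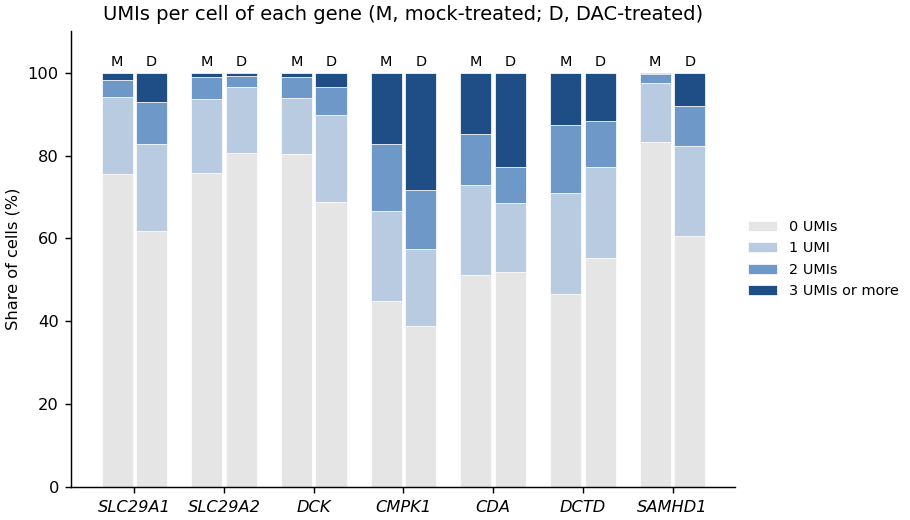
Share of cells (%) with 0, 1, 2, or 3 or more UMIs of each gene, from light to dark, in mock-treated (M) and DAC-treated (D) cells. For *CDA*, cells with 3 UMIs or more went from 14.8% to 22.7% while cells with 0 UMIs hardly differed (913 of 1783 and 910 of 1751), and for *SAMHD1* both classes moved.

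Next, the 7 genes were related to the share of UMIs from the selected genes, a measure of how much of a cell's RNA came from genes close to silent without DAC. The 1120 DAC-treated cells were cut into 5 groups of 224 cells by this share, whose median was 0.781% in the lowest group and 1.95% in the highest. None of the 7 genes differed by 1.5-fold or more between the highest and the lowest group, where 24.5% of 10836 genes were called higher and 5.99% lower, with a median fold of 1.15. After drawing 10000 UMIs per cell, *SLC29A1* (0.574, 0.367 to 0.883) and *SAMHD1* (1.66, 1.07 to 2.598) passed this limit, and between the outermost of 10 groups of cells, *SLC29A1* did (0.615, 0.449 to 0.835). Over cells, the Spearman correlation with the share lay between -0.08 and 0.08 for all 7 genes. The 5th and 95th percentiles over all genes were -0.193 and 0.165, and the cells share a library and differ in depth, so that such weak values are a description only.

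*SLC29A1* was the one member that was lower in the highest group with an interval below 1. Its level was 23.0, 19.2, 22.1, 22.6, and 16.1 CPM from the lowest to the highest group, so that the highest group had the lowest level, with an interval (13.7 to 18.8) that overlapped that of the second group (16.7 to 22.0). The fold was 0.697 (0.567 to 0.855), and 7.57% of genes had a lower one. With selected genes that had no UMI in any mock-treated cell, it was 0.835 (0.686 to 1.01), with an interval that contained 1, that of *SAMHD1* was 1.11 (0.921 to 1.34), and that of *CDA* was 0.858 (0.767 to 0.960). *SAMHD1* went the other way, with 18.2, 19.7, 21.5, 25.1, and 23.8 CPM. Its fold was 1.31 (1.08 to 1.59), and 63.3% of genes had a lower one.

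The kinases and deaminases showed no steady course. *DCK* had 14.2, 15.6, 15.6, 11.6, and 13.7 CPM, with a fold of 0.969 (0.762 to 1.23). *CMPK1* ranged from 49.9 to 57.1 CPM with a fold of 1.15 (1.02 to 1.29), the same as the median of all genes. *CDA* had 58.6, 69.6, 61.9, 81.4, and 61.0 CPM, where the fourth group stood above both neighbours and the fold of the outer groups was 1.04 (0.930 to 1.17). *DCTD* lay between 27.0 and 29.9 CPM in all 5 groups, with a fold of 1.08 (0.916 to 1.27), and *SLC29A2* between 5.27 and 8.43 CPM, with a fold of 1.203 (0.826 to 1.76).

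The same groups were made from the 1298 mock-treated cells, in which the selected genes had medians of 0.350% to 0.603% of the UMIs. The limit of 2 UMIs was set on these same cells, so that their order by this share depends on the rule. *SAMHD1* went from 5.87 to 9.79 CPM between the outer groups, with a fold of 1.67 (1.17 to 2.38). The median fold of all genes was 1.14, and 84.9% of genes had a lower fold than *SAMHD1*. Its Spearman correlation with the share was 0.039, and 68.5% of genes had a lower one. In these cells, the share correlated at 0.363 with the share of UMIs from interferon-stimulated genes and at -0.275 with the total UMIs, and their part in the fold was not tested. *SLC29A1* had a fold of 0.932 (0.702 to 1.23) and *DCK* of 0.998 (0.737 to 1.35). In all 5 groups, *SLC29A2* and *DCTD* were lower in DAC-treated cells than in the mock-treated group of the same rank, and the other 5 genes were higher.

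**Figure D3:**
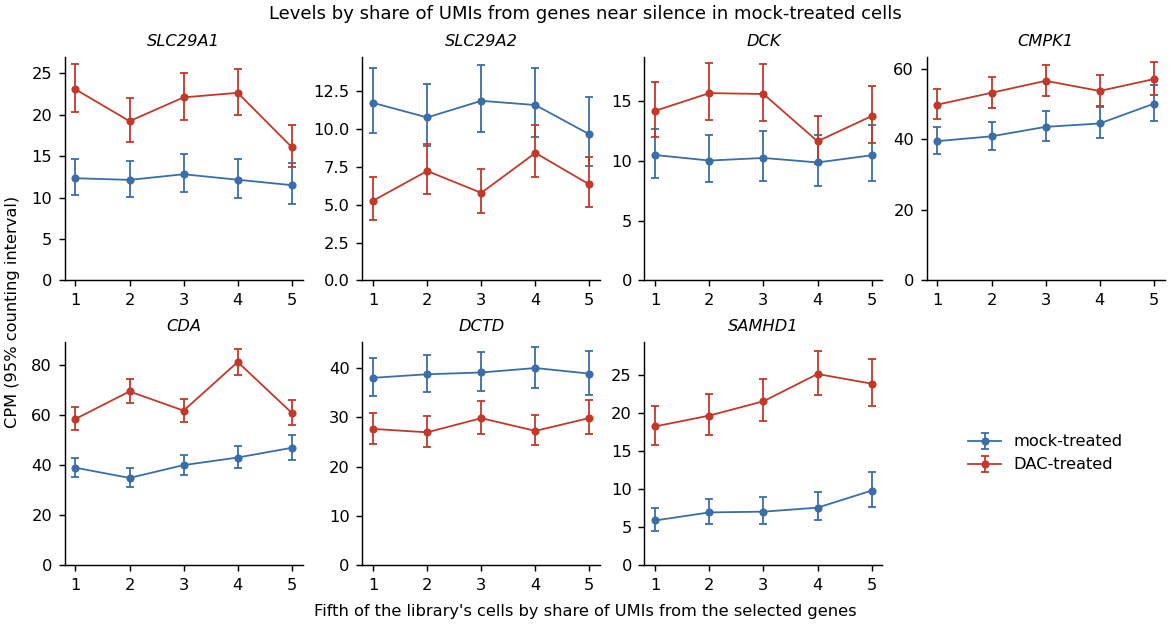
Level of each gene (CPM, 95% counting interval) in 5 equal groups of cells ordered by the share of UMIs from the selected genes, for mock-treated (blue) and DAC-treated (red) cells. *SLC29A1* in DAC-treated cells went from 23.0 to 16.1 CPM between the outer groups, *SAMHD1* went from 18.2 to 23.8 CPM, and no gene differed by 1.5-fold between the outer DAC-treated groups.

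Other features of the cells moved with the share. In DAC-treated cells, the share correlated at -0.265 with the share of UMIs from 28 S-phase genes and at -0.310 with that from 26 G2/M genes (Spearman, 1120 cells of 1 library), and at 0.204 with that from 24 interferon-stimulated genes, a list added after the data had been seen. The G2/M genes gave a median of 0.416% of the UMIs in the lowest group and 0.0838% in the highest. The share also correlated at 0.168 with the mitochondrial share of UMIs, whose median was 16.2% in the lowest group and 20.1% in the highest, and over UMIs that are not mitochondrial the fold of *CDA* was 1.26 (1.12 to 1.41). The part of the mitochondrial share in the folds was not tested further. When the groups were made within 10 classes of cells by the summed share of S-phase and G2/M genes, the fold of *SLC29A1* was 0.901 (0.741 to 1.09), with an interval that contained 1, that of *SAMHD1* was 1.49 (1.23 to 1.81), and that of *CDA* was 0.821 (0.739 to 0.911), below 1 where it had been 1.04.

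The members were then related to these 3 gene lists themselves, in each library. *DCK* was higher in cells rich in S-phase RNA, from 5.45 to 19.7 CPM between the lowest and the highest of 5 groups in mock-treated cells and from 6.90 to 20.9 CPM in DAC-treated cells. The folds were 3.60 (2.597 to 5.10) and 3.03 (2.31 to 4.02), above those of 96.8% and 96.7% of all genes. With the G2/M genes, the folds of *DCK* were 3.65 (2.58 to 5.28) and 2.16 (1.66 to 2.84). *SLC29A1* had folds of 2.28 (1.73 to 3.03) and 2.18 (1.76 to 2.72) with the S-phase genes. Thus the first kinase and the ENT1 carrier were both higher in the group richest in S-phase RNA than in the poorest, with or without DAC.

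*CDA* showed the opposite order. With the S-phase genes, it fell from 50.4 to 30.6 CPM in mock-treated cells and from 104.3 to 39.7 CPM in DAC-treated cells, folds of 0.606 (0.523 to 0.702) and 0.380 (0.338 to 0.427). With the G2/M genes, the folds were 0.417 (0.356 to 0.487) and 0.4003 (0.360 to 0.445). The DAC-treated cells with 10 UMIs or more of *CDA* that passed the limits (92 cells) had a median of 0.176% of their UMIs from the S-phase and G2/M genes, against 0.568% in the other cells. *SLC29A2*, *CMPK1*, *DCTD*, and *SAMHD1* had folds between 0.891 and 1.249 with the S-phase genes in both libraries. With the G2/M genes, *SLC29A2* had a fold of 0.958 (0.732 to 1.26) in mock-treated and of 0.663, with an interval below 1, in DAC-treated cells, and the other 3 genes lay between 0.746 and 1.14.

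With the interferon-stimulated genes, *SAMHD1* had the highest fold of the members in DAC-treated cells and *CDA* in mock-treated cells. *SAMHD1* went from 5.96 to 9.53 CPM in mock-treated cells, a fold of 1.60 (1.13 to 2.28), and from 12.3 to 34.6 CPM in DAC-treated cells, a fold of 2.82 (2.30 to 3.48) that 98.9% of genes were below. *CDA* had folds of 1.87 (1.61 to 2.19) and 2.44 (2.18 to 2.74). *SLC29A2* had folds of 1.21 (0.905 to 1.62) and 1.52 (1.07 to 2.17). *DCK* was lower where these genes were high, with folds of 0.668 (0.489 to 0.906) and 0.775 (0.602 to 0.994). The interferon-stimulated genes were themselves higher in DAC-treated cells, as 21 of 23 tested interferon-stimulated genes were at least 1.5-fold higher, against 31.3% of all genes, with a median log2 ratio of 3.00.

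**Figure D4:**
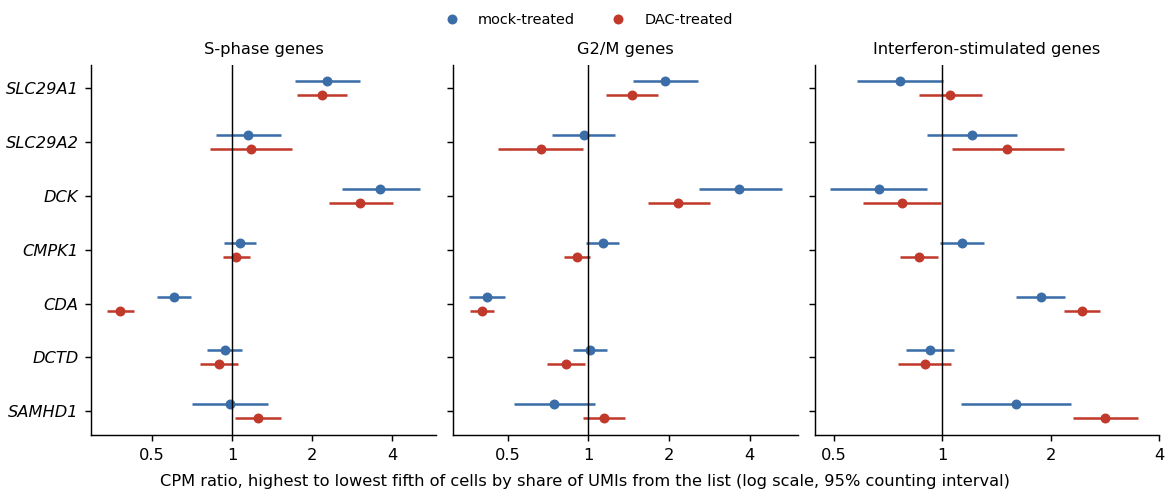
Fold of each gene (CPM in the highest against the lowest of 5 groups of cells, log axis, 95% counting interval), with cells ordered by their share of UMIs from S-phase, G2/M, or interferon-stimulated genes, in mock-treated (blue) and DAC-treated (red) cells. *DCK* and *SLC29A1* lay above 1 and *CDA* below 1 for both cell cycle lists in both libraries, and *SAMHD1* and *CDA* lay above 1 for interferon-stimulated genes.

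Both libraries differed in these cell cycle genes. Of 27 tested S-phase genes, 19 were higher by 1.5-fold or more in DAC-treated cells and 0 lower, and of 26 G2/M genes, 23 were higher and 0 lower, where 31.3% of all genes were called higher and 13.7% lower. The ratios of the members were therefore computed again within cells of like cell cycle RNA. Cells with no more S-phase and G2/M RNA than the median mock-treated cell (0.0626% of UMIs) were 649 mock-treated and 84 DAC-treated cells, and cells above the 90th percentile of mock-treated cells (0.655%) were 130 and 422 cells.

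In these classes, the ratio of *DCK* was 1.00 or below, with intervals that contained 1. Its level was 6.31 CPM in mock-treated and 5.00 CPM in DAC-treated cells of the low class, a ratio of 0.792 (0.469 to 1.27), and 17.7 and 17.8 CPM in the high class, a ratio of 1.00 (0.805 to 1.26). *SLC29A1* had ratios of 1.32 (0.924 to 1.84) and 1.33 (1.07 to 1.66), both under 1.5-fold. *CDA* differed more than over all cells, with 49.7 and 129.1 CPM in the low class and 18.4 and 44.7 CPM in the high class. Its ratios were 2.598 (2.33 to 2.89) and 2.43 (1.99 to 2.99), of which the first rests on 517 UMIs in 84 DAC-treated cells and the second on 110 UMIs in 130 mock-treated cells. *SAMHD1* stayed higher, at 2.53 (1.91 to 3.33) and 3.79 (2.70 to 5.48), and *SLC29A2* stayed lower, at 0.593 (0.379 to 0.891) and 0.580 (0.428 to 0.794). *DCTD* had ratios of 0.778 (0.639 to 0.940) and 0.673 (0.578 to 0.786), and *CMPK1* of 1.35 (1.17 to 1.57) and 1.23 (1.07 to 1.41). The median gene had ratios of 1.18 and 0.996 in these classes. The part of the cell cycle in the ratios over all cells was not tested beyond these classes.

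Whether the steps of the route were present in the same cells was examined next. In DAC-treated cells passing the limits, *DCK* was found together with *SLC29A1* or *SLC29A2* in 350 of 1120 cells (31.2%, 28.5 to 34.1), where 349.7 cells are given by multiplying the shares of cells with each gene among cells of like depth. In mock-treated cells, there were 196 of 1298 cells (15.1%, 13.2 to 17.2) where 204.5 are so given. *DCK* and *SAMHD1* were found together in 306 DAC-treated cells against 305.3 so given, and *CDA* and *SAMHD1* in 465 against 460.7. The median number of members detected in a cell was 3 in mock-treated and 4 in DAC-treated cells, all 7 were detected in 12 and 32 cells, and none in 25 and 11 cells. These numbers were not matched for depth, and the cells had medians of 32296.5 UMIs in the mock-treated and 47060.5 UMIs in the DAC-treated library. Over the 21 pairs of members, Spearman correlations of the levels ran from -0.026 to 0.054 in mock-treated and from -0.065 to 0.138 in DAC-treated cells. At a few UMIs per gene and cell, these values do not tell whether the genes go together.

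Of the other genes of nucleotide handling, 83 were listed in 6 groups and 62 reached 100 UMIs in either library. Among these 62 genes, 21 were higher by 1.5-fold or more in DAC-treated cells and 6 lower, where 31.3% and 13.7% of all genes were, with a median log2 ratio of 0.26 that was close to the 0.25 of all 12825 genes. Relative to the median gene, the numbers were 10 and 13, where 23.2% and 19.2% of all genes were called. At 2-fold, the numbers were 6 and 3, where 16.4% and 6.58% of all genes were called. The lists were written with earlier results of these data known.

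Of 15 tested genes of pyrimidine synthesis and salvage, the enzymes that supply pyrimidine nucleotides, 6 were higher and 0 lower (all genes, 31.3% and 13.7%), and relative to the median gene 2 were higher and 4 lower. *RRM2*, the cell cycle-regulated subunit of ribonucleotide reductase, had 48.7 CPM in mock-treated and 163.2 CPM in DAC-treated cells, a ratio of 3.35, and its partner *RRM1* had a ratio of 1.70. *TYMS*, which makes dTMP from dUMP, had a ratio of 2.15, *UMPS* of 1.61, and *CTPS1*, which makes CTP, of 1.55. Of the 4 target enzymes, 2 were higher and 0 lower under both scalings (all genes, 31.3% and 13.7% by total UMIs). *DNMT1* had 114.8 and 216.1 CPM, a ratio of 1.88, and *UHRF1*, which brings DNMT1 to replicated DNA, had a ratio of 2.72. The de novo methyltransferases *DNMT3A* and *DNMT3B* had ratios of 0.822 (0.709 to 0.954) and 0.988 (0.870 to 1.12).

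Among 17 tested nucleoside and nucleotide kinases, 4 were higher and 2 lower (all genes, 31.3% and 13.7%), and relative to the median gene 1 was higher and 3 lower. *NME1*, a nucleoside diphosphate kinase able to add the last phosphate, had 389.0 and 720.8 CPM, a ratio of 1.85, while *NME2* had 0.872, and the 2 genes are similar enough in sequence that reads may be split between them. *UCK1* had a ratio of 1.67, *NME6* of 1.59, *DTYMK* of 1.57, *TK1* of 1.45, and *UCK2*, which phosphorylates uridine and cytidine, of 1.04. The mitochondrial kinases *TK2* and *AK3* were lower, at 0.596 and 0.490. Of 13 phosphatases and nucleotide hydrolases, 3 were higher and 3 lower (all genes, 31.3% and 13.7%), and 1 and 4 relative to the median gene. *DCTPP1*, which cleaves dCTP and its analogs, had 93.5 and 151.4 CPM, a ratio of 1.62, and *NUDT1*, which clears oxidized purine nucleotides, had a ratio of 4.59. *NT5M*, *DNPH1*, and *NT5C3A* were lower, at 0.242, 0.407, and 0.646.

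Of 6 tested genes of uptake and efflux, 3 were higher and 0 lower (all genes, 31.3% and 13.7%), and 2 and 0 relative to the median gene. The 3 genes encode efflux pumps, with ratios of 1.65 for *ABCC4*, 1.74 for *ABCC5*, and 2.86 for *ABCB1* (39 and 132 UMIs). The concentrative nucleoside carriers were nearly absent, with 0 and 17 UMIs of *SLC28A1*, 22 and 23 of *SLC28A2*, and 0 and 2 of *SLC28A3*. Of 7 tested deaminases of nucleic acids and purines, 3 were higher and 1 lower (all genes, 31.3% and 13.7%), and 2 and 2 relative to the median gene. *APOBEC3G* went from 46 to 422 UMIs, a ratio of 7.75, *APOBEC3F* had a ratio of 1.75, and *APOBEC3B* of 1.66, while the tRNA deaminase *ADAT2* was lower at 0.514. The APOBEC3 genes resemble each other, so that their counts are uncertain.

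**Figure D5:**
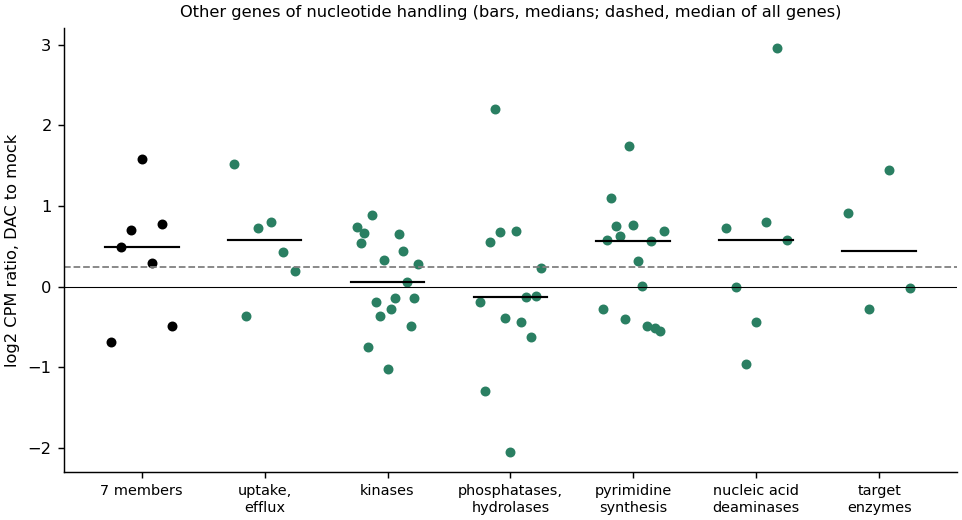
Log2 CPM ratio of DAC-treated to mock-treated cells for the 7 genes (black) and for the tested genes of 6 other groups of nucleotide handling (green), with bars at the medians and a dashed line at the median of all genes (0.25). The pyrimidine synthesis group had 6 of 15 genes at 1.5-fold or more and *SAMHD1* was the highest of the black points at 1.58.

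The genes whose levels followed those of the members most closely over the 1120 DAC-treated cells were also listed, out of 5942 genes with 1000 UMIs or more. For *SAMHD1*, these were *ADAR*, *IFI6*, and *OAS3*, with Pearson correlations of 0.323, 0.311, and 0.299. All 3 genes are known to be interferon-stimulated, and *IFI6* and *OAS3* were in the list of such genes above. In mock-treated cells, the same pairs had 0.057, 0.083, and 0.011. For *CDA*, they were *SH3BGRL3*, *S100A11*, and *RRAS*, with 0.395, 0.371, and 0.357, and 0.123, 0.051, and 0.083 in mock-treated cells. For *DCK*, they were *HMGB1*, *HMGB2*, and the replication helicase subunit *MCM3*, with 0.219, 0.214, and 0.212, and these pairs had like values in mock-treated cells, 0.246, 0.269, and 0.253. The nearest gene was *TOMM40* for *SLC29A1* (0.251), *YWHAZ* for *CMPK1* (0.235), and *UBE2D3* for *DCTD* (0.182). These correlations are over cells of 1 library that differ in depth, they were chosen as the highest of many, and they are a description.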

How the data were processed

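The authors mapped the reads of 1 mock-treated and 1 DAC-treated HCT116 library to hg38 using Cell Ranger, and deposited UMI counts, which are whole numbers and not normalized, for each gene in each cell. The annotation release and the filter on cells are not given in the sources used here. Counts were summed over all deposited cells and divided by the library's total of UMIs. Genes were matched by name and by Ensembl identifier, since 24 names repeat, and positions were taken from GENCODE release 44.

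The 7 genes, the gene lists, and the rules were chosen with earlier results of these data known. Named were all 7 genes, every pathway gene reaching 100 UMIs in either library and a CPM ratio of 1.5-fold or more in either direction, *NME1*, *NME2*, *DCTPP1*, *RRM1*, *RRM2*, *TK1*, *UCK2*, and *DNMT1* whatever their change, and per member the 3 genes with the highest Pearson correlation of log2(CPM/100 + 1). The values of 3 genes that fall under this rule are not reported here. Markers, *DNMT3A*, *DNMT3B*, and genes of the concentrative carriers were named in addition, after their values had been seen. Called means 1.5-fold or more. Ratios have exact intervals of the split of the summed counts. For an even share, each cell was given the gene's UMIs in proportion to its total UMIs.

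Alternatives were thinning to 1007 UMIs per cell (the 10th percentile over both libraries), cell filters, dropping the 5% of cells of highest depth, median-of-ratios scaling, scaling to UMIs that are not mitochondrial, the mean of per-cell CPM, other ways of making the 5 groups, and other limits for pathway genes. Thinning to 10000 UMIs, leaving out the 5% of cells highest in the gene, the cell cycle classes, 10 in place of 5 groups of cells, groups within 10 classes of cell cycle share, and the interferon-stimulated list were added after the data had been seen. Doublets were not called, since doublets of 1 cell line carry no marker. Python 3.11.15, numpy 2.4.6, scipy 1.17.1, pandas 2.3.3, and matplotlib 3.10.9 were used, and the computations were tested on simulated data.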

Additional observations from a re-analysis of the deposited data

How the results depend on the processing

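With 1 library per condition, nothing here measures the spread between cultures. No paired analysis was possible because there was 1 library per condition and no test. Of 70 recomputed ratios of the 7 genes, 41 moved by less than the counting interval, 29 moved by more, and 0 calls turned direction. Of 49 recomputed folds over the selected-gene share, 41 moved by less and 8 by more. Turns were counted for called genes only, so none could be counted among the folds, where no gene was called. The ratio of *DCK*, which was not called, went from 1.41 to 0.792 in cells of low cell cycle RNA. Folds crossed 1 for *SLC29A2* (1.203 to 0.812), *DCK* (0.969 to 1.22), and *CDA* (1.04 to 0.821) under some alternatives. Thinning to 1007 UMIs per cell left few UMIs, with ratios of 1.11 (0.611 to 2.04) for *SLC29A1*, 0.755 for *SLC29A2*, 1.52 for *CMPK1*, 0.617 for *DCTD*, and 6.64 (2.56 to 21.9) for *SAMHD1*. Median-of-ratios scaling gave 1.505 for *SLC29A1*, 1.24 for *DCK*, 1.08 for *CMPK1*, 1.44 for *CDA*, 0.626 for *DCTD*, and 2.64 for *SAMHD1*, which follows from dividing every ratio by 1.14. Thinning to 10000 UMIs gave 1.62 for *DCK*, 1.44 for *CDA*, and 0.637 for *DCTD*. The mean of per-cell CPM gave 2.06 for *DCK* and 0.696 for *SLC29A2*. Dropping the 5% of cells of highest depth gave 1.51 for *CDA*, and leaving out those with the highest CPM of the gene gave 1.66 for *DCK*, 1.42 for *CDA*, and 3.66 for *SAMHD1*. In cells of low cell cycle RNA, the ratios were 1.32 for *SLC29A1*, 0.792 for *DCK*, 1.35 for *CMPK1*, 2.598 for *CDA*, 0.778 for *DCTD*, and 2.53 for *SAMHD1*, and in cells of high cell cycle RNA they were 1.33 for *SLC29A1*, 1.00 for *DCK*, 2.43 for *CDA*, and 3.79 for *SAMHD1*. The fold over the selected-gene share was 0.901 for *SLC29A1* and 0.821 (0.739 to 0.911) for *CDA* within 10 classes of cell cycle share, and 0.574 for *SLC29A1*, 0.812 for *SLC29A2*, 1.22 for *CDA*, and 1.66 for *SAMHD1* after thinning to 10000 UMIs. For *SLC29A1*, it was 0.835 with selected genes that had no UMI in mock-treated cells and 0.615 with 10 groups of cells. For *CDA*, it was also 0.858 with those selected genes, 1.26 over UMIs that are not mitochondrial, and 1.24 with 10 in place of 5 groups of cells. Of the 62 pathway genes, 6 were higher and 3 lower at 2-fold (16.4% and 6.58% of all genes), and 10 higher and 13 lower under median-of-ratios scaling. Where not said, the cause was not tested.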
